A study of Saccharomyces cerevisiae with 28 samples.

Results

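MATALPHA1, MATALPHA2, HMRA1 and HMRA2 are the regulator genes of the mating type cassettes of budding yeast, Saccharomyces cerevisiae. All probes that the platform annotation gives to these 4 genes were taken, which made 6 of 1457 named probes and 4 of 982 named genes. HMRA1 had 3 probes and the other genes 1 each. The genes were chosen by their mutant to wild-type log ratios on these same arrays, so those ratios are given as a description, with no test. The study hybridised RNA of 8 gene deletion strains together with wild-type RNA on spotted, splicing-specific microarrays and asked how loss of these genes changes splicing. The csn12, YPR045C (THP3), ist3, csn9, pci8 and isy1 strains were taken in log phase, which is 30 °C in the design text. The tgs1 and ynr004w (SWM2) strains were taken at 30 °C (0 min) and at 10, 25 and 40 min at 16 °C. Each mutant shared its arrays with wild type collected under the same conditions, and the wild type of isy1 carries a label of its own. With a dye exchange in each of the 14 conditions, 28 arrays were used. The sources used here do not give strain background, mating type, pooling or culture.

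In yeast the cell type is set by the cassette at the MAT locus, while copies of both kinds stand silent at HML and HMR, where Sir proteins keep them off. In alpha cells the alpha1 protein, from MATALPHA1, switches on alpha-specific genes together with Mcm1. The alpha2 protein, from MATALPHA2, works with Mcm1 and the Tup1–Cyc8 corepressor to shut off a-specific genes. In diploids alpha2 pairs with the a1 protein, from the HMRA1 sequence, to shut off haploid-specific genes, MATALPHA1 among them. The a1 gene is interrupted by introns, unlike most yeast genes. HMRA2 is a reading frame that corresponds to the end of the alpha2 gene and lies in sequence that the cassettes share.

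All 4 genes lie on chromosome III in the R64 assembly, whose MAT locus holds the alpha cassette. MATALPHA2 (YCR039C) and MATALPHA1 (YCR040W) are neighbours that point away from each other, and so are HMRA2 (YCR096C) and HMRA1 (YCR097W). Because the assembly carries alpha at MAT, a-cassette probes are named from HMR, and a cell with an a cassette at MAT would hold the same sequence there. The silent alpha copies, HMLALPHA1 (YCL066W) and HMLALPHA2 (YCL067C), had 0 probes of their own name. A probe therefore cannot be assigned to one cassette, and the HMRA2 and MATALPHA2 probes may read the same transcripts. The sources used here give neither probe sequences nor which HMRA1 probe lies on an exon, an intron or a splice junction, so the 3 are called probes 1, 2 and 3.

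Each probe was printed as 6 spots, and 8893 to 9199 spots of an array had a value. The deposited values are log ratios, read here as log2 of mutant over wild type because channel 1 held the mutant on every array. Neither the log base nor the direction is stated, so the direction is likely but not settled, and with the opposite direction every "higher" and "lower" would change places. After centring, no pair of arrays with the same dye orientation correlated below -0.30 over all probes (lowest r = -0.15 among 182 pairs). The 2 arrays of a condition correlated above 0 in 4 of 14 conditions as deposited, and in 12 of 14 after the mean over all arrays of an orientation was subtracted. The exceptions were csn9 (r = -0.09) and tgs1 at 30 °C (r = -0.37). Of the deleted genes only IST3, TGS1 and ISY1 were read in their own strains, and they gave no check of the strains. In the ist3 strain IST3 stood at 0.63 with the mutant in Cy5 and at -0.32 with the mutant in Cy3, TGS1 likewise had opposite signs on both arrays in all 4 tgs1 conditions, and ISY1 stood at -0.15 and -0.10 in isy1. The first number in the array names is shared by csn12, YPR045C and ist3, by csn9 and pci8, and by all tgs1 and ynr004w arrays, with isy1 alone. What it marks is not stated, and it cannot be told apart from the strain in any difference between these sets.

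MATALPHA1, the activator of alpha-specific genes, spanned the widest range of the 6 probes. Its mean log2 ratio reached 3.99 in YPR045C and 3.25 in ist3, lay at 1.06 in csn12, stayed between 0.15 and 0.34 in csn9, pci8 and isy1, and was between -1.74 and -0.95 in every tgs1 and ynr004w condition. The SD of its 14 means, 1.78, ranked 4 among 1456 probes, against a median SD of 0.16 over all probes. Both arrays had one sign in 13 of its 14 conditions, which held for 34.5% of all probe-by-condition values. These are bulk RNA samples, and the mating type of the mutant and wild-type strains is not given. Strains of different mating type, a changed share of cells of one mating type and a change in RNA per cell cannot be told apart.

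In YPR045C, MATALPHA1 stood at 3.74 with the mutant in Cy5 and at 4.24 with the mutant in Cy3, a mean 15.9-fold above wild type. In ist3 it stood at 3.01 and 3.49 in the same order of dyes, a mean of 3.25 or 9.50-fold above wild type. It ranked 2 from the top of 1456 probes in both strains, and the arrays of YPR045C lay above those of ist3. In csn12 the arrays gave 0.75 and 1.37, a 2.08-fold mean that ranked 6 from the top. The csn12 values were the thinnest measured for this gene, since the first array kept 2 of the 6 spots (0.43 and 1.06) and the second kept 5, which ran from 0.30 to 2.32. Both csn12 arrays lay below those of ist3 and above those of the remaining log-phase strains. The pci8 arrays gave 0.25 and 0.44, the csn9 arrays 0.25 and 0.06, and the isy1 arrays 0.72 and -0.05. The isy1 arrays span both others and 0, so these 3 strains have no order, and isy1 is the condition in which MATALPHA1 had opposite signs.

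In tgs1 at 30 °C MATALPHA1 stood at -1.02 with the mutant in Cy5 and at -0.88 with the mutant in Cy3, 1.93-fold below wild type. In the same order of dyes the tgs1 arrays gave -1.21 and -0.83 at 10 min, -1.62 and -0.92 at 25 min, and -1.52 and -0.98 at 40 min of 16 °C. All 8 tgs1 values lay below 0, including those of the 30 °C pair, the one with the most negative correlation over all probes. In ynr004w the arrays gave -1.25 and -1.08 at 30 °C, then -1.55 and -1.24 at 10 min, -2.10 and -1.38 at 25 min, and -1.62 and -1.13 at 40 min of 16 °C. The lowest mean was that of ynr004w at 25 min, 3.34-fold below wild type and rank 4 from the lowest of 1456 probes. MATALPHA1 ranked between 4 and 7 from the lowest in all 8 tgs1 and ynr004w conditions. Array ranges of neighbouring conditions overlapped throughout this low group, while the highest array of the group, at -0.83, lay below the lowest log-phase array, at -0.05.

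**Figure D1:**
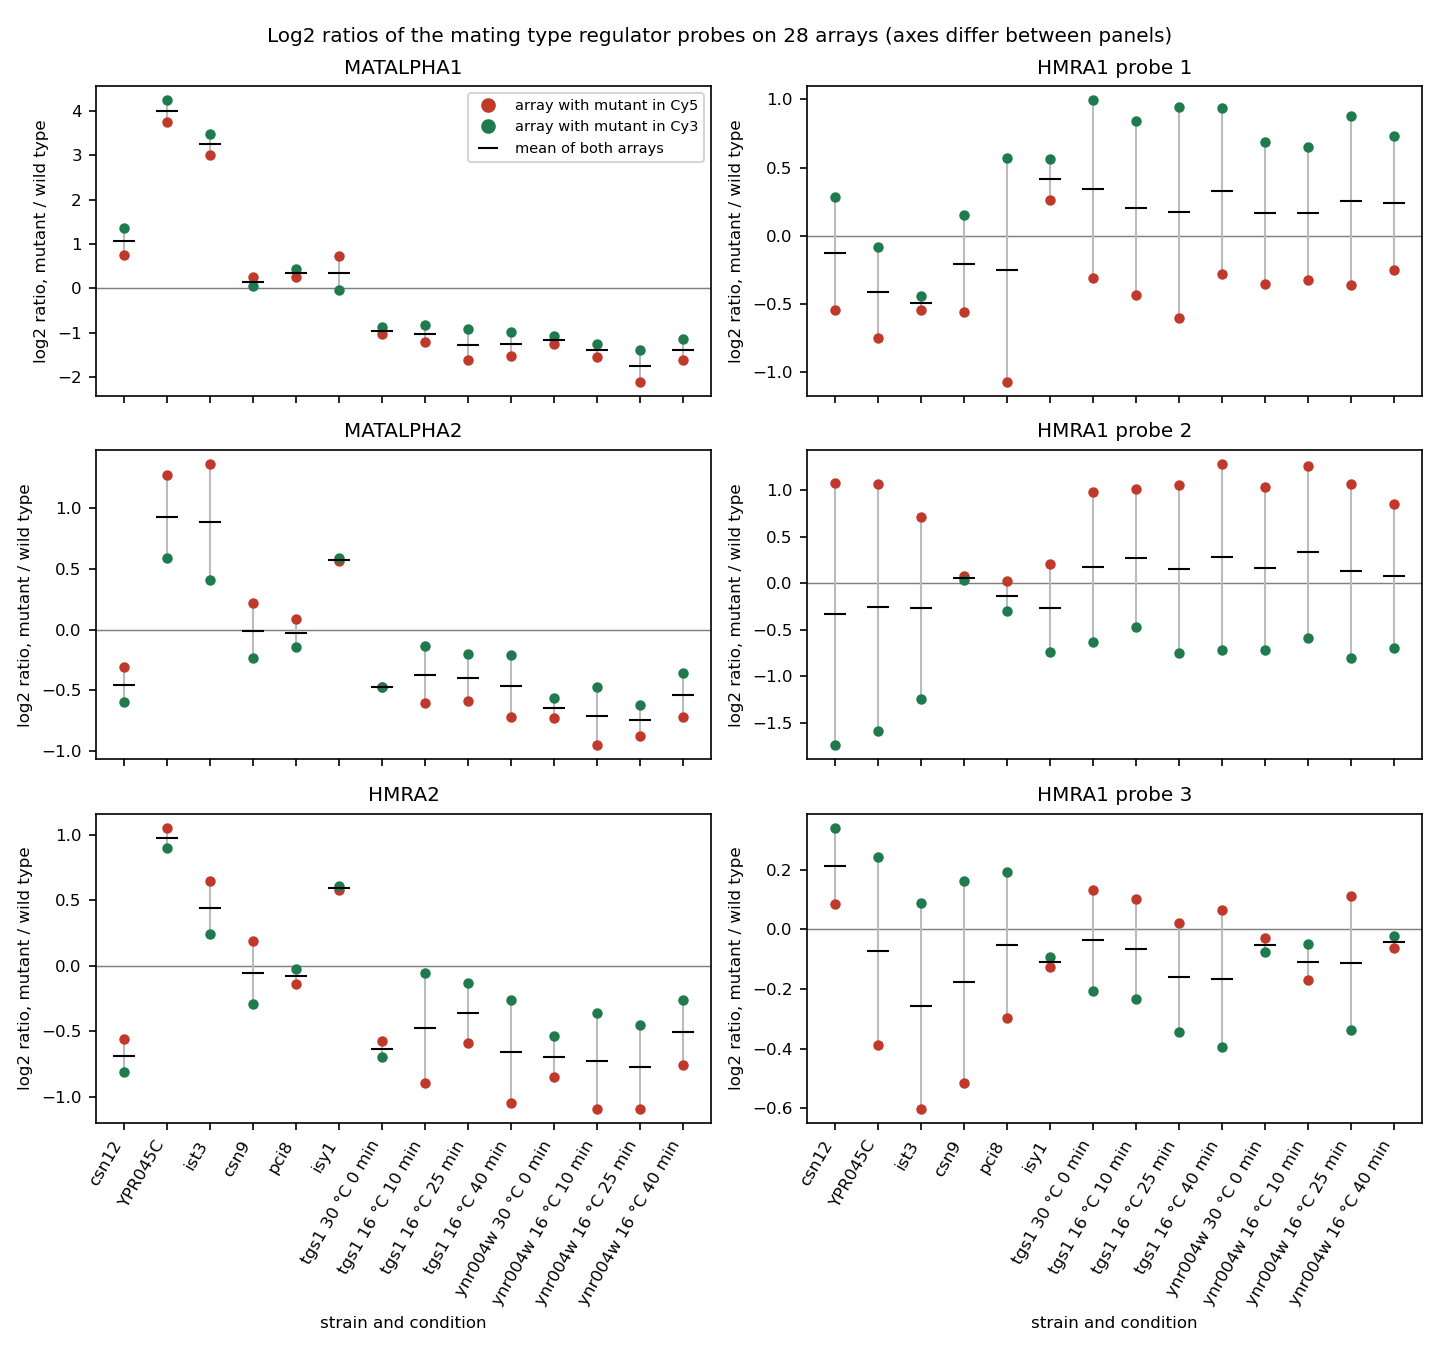
Log2 ratio of mutant over wild type (vertical axis, scaled for each panel) for the 6 probes in the 14 conditions (horizontal axis); red points are arrays with the mutant in Cy5, green points arrays with the mutant in Cy3, and bars their mean. MATALPHA1, MATALPHA2 and HMRA2 have both points on one side of 0 in 13, 12 and 13 conditions, whereas HMRA1 probes 1 and 2 have them on opposite sides in 11 and 13.

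MATALPHA2, whose product represses a-specific genes, lay above 0 in YPR045C, ist3 and isy1 and below 0 in csn12, tgs1 and ynr004w, over a narrower range than MATALPHA1. In YPR045C it stood at 1.27 with the mutant in Cy5 and at 0.59 with the mutant in Cy3, a 1.91-fold mean that ranked 7 from the top. The ist3 arrays gave 1.37 and 0.41 (1.85-fold, rank 56), so the arrays of these strains overlapped and they have no order. In isy1 the arrays lay close together at 0.56 and 0.59, 1.49-fold above wild type, although the MATALPHA1 arrays of the same strain lay on both sides of 0. In csn9 the arrays gave 0.22 and -0.24, and in pci8 0.09 and -0.14, so neither strain had a settled sign.

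In csn12 MATALPHA2 stood at -0.31 with the mutant in Cy5 and at -0.59 with the mutant in Cy3, 1.37-fold below wild type, while MATALPHA1 lay above wild type on both arrays. The tgs1 arrays for MATALPHA2 gave -0.47 and -0.48 at 30 °C, -0.60 and -0.14 at 10 min, -0.59 and -0.20 at 25 min, and -0.72 and -0.21 at 40 min. Those of ynr004w gave -0.73 and -0.56 at 30 °C, -0.95 and -0.47 at 10 min, -0.88 and -0.62 at 25 min, and -0.72 and -0.36 at 40 min. All 16 arrays of the 2 strains lay below 0, and their ranges overlapped from one time to the next. MATALPHA2 ranked 12 to 22 from the lowest in ynr004w and 22 to 74 from the lowest in tgs1.

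The alpha genes thus lay on one side of 0 in 11 of 14 conditions but differed in size. MATALPHA1 exceeded MATALPHA2 by 3.06 log2 units in YPR045C (2.47 with the mutant in Cy5, 3.65 with the mutant in Cy3) and by 2.36 in ist3 (1.64 and 3.07). In csn12 the gap was 1.51 (1.06 and 1.96). In tgs1 and ynr004w MATALPHA1 was instead the lower of the pair, by a difference of -0.48 at 30 °C to -0.88 at 25 min in tgs1 and of -0.52 at 30 °C to -0.99 at 25 min in ynr004w. The gap had one sign on both arrays in 13 of 14 conditions, with isy1 (0.15 and -0.64) the exception. Over the 14 means, which include 4 conditions each from tgs1 and ynr004w, the genes correlated at Pearson r = 0.89 and Spearman rho = 0.84.

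HMRA2 followed MATALPHA2 closely. In YPR045C HMRA2 stood at 1.05 with the mutant in Cy5 and at 0.90 with the mutant in Cy3, 1.97-fold above wild type and rank 6 from the top. The isy1 arrays gave 0.58 and 0.61, 1.51-fold above wild type, within 0.02 log2 units of the MATALPHA2 values on each array. In ist3 they gave 0.65 and 0.24, which is 1.36-fold above wild type and rank 157. The csn12 arrays gave -0.56 and -0.81, 1.61-fold below wild type and rank 23 from the lowest. The pci8 arrays (-0.14 and -0.02) and the csn9 arrays (0.19 and -0.29) stayed near 0, and csn9 was the condition with opposite signs.

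In tgs1 the HMRA2 arrays gave -0.57 and -0.70 at 30 °C, -0.89 and -0.05 at 10 min, -0.59 and -0.13 at 25 min, and -1.05 and -0.26 at 40 min. In ynr004w they gave -0.85 and -0.53 at 30 °C, -1.10 and -0.36 at 10 min, -1.10 and -0.45 at 25 min, and -0.75 and -0.26 at 40 min. All were below 0, and at 16 °C the array with the mutant in Cy5 was the lower one in each of these 6 pairs, and the dyes lay farther apart than the time point means of either strain. Over the 14 means HMRA2 and MATALPHA2 correlated at r = 0.97 and rho = 0.95, with the same sign in 14 of 14. They differed by a median of 0.05 log2 units and by less than 0.3 in 13 conditions. The exception was ist3, where MATALPHA2 exceeded HMRA2 by 0.72 and 0.17 on the separate arrays. The difference between the probes had one sign on both arrays in 7 of 14 conditions.

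**Figure D2:**
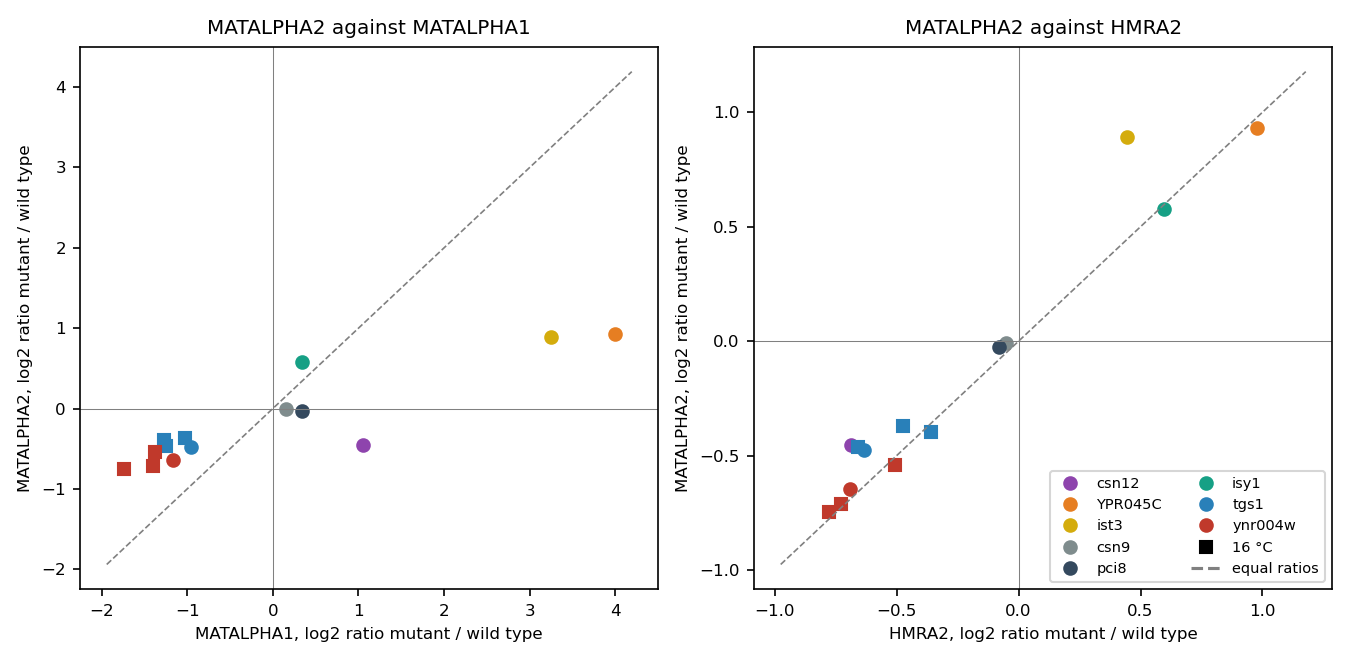
Mean log2 ratio of MATALPHA2 (vertical axis) against that of MATALPHA1 (left panel, horizontal axis) and of HMRA2 (right panel, horizontal axis) in the 14 conditions; squares are 16 °C samples, and the dashed line marks equal ratios. MATALPHA2 and HMRA2 lie along the line except in ist3, while MATALPHA1 runs from -1.74 to 3.99 and csn12 is the point with MATALPHA1 above 0 and MATALPHA2 clearly below it.

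HMRA1, the gene of the a1 partner of alpha2, had one sign on both arrays in a minority of conditions, as did probes in general. Its means ran from -0.49 to 0.41 for probe 1, from -0.33 to 0.34 for probe 2 and from -0.26 to 0.21 for probe 3. Both arrays had one sign in 3, 1 and 5 of 14 conditions, against 34.5% of all probe-by-condition values. The count of probe 3 is close to that share and by itself says little about the gene. For probes 1 and 2 the dye orientation gave the larger difference: with the mutant in Cy5, probe 1 was the lower array in 14 of 14 conditions and probe 2 the higher array in 14 of 14. The part of the ratio that followed the dye was -0.49 for probe 1 and 0.81 for probe 2, which ranked 172 and 20 in size among 1456 probes (median size 0.23). It was -0.03 for probe 3, -0.15 for MATALPHA1, -0.11 for HMRA2 and less than 0.01 in size for MATALPHA2.

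HMRA1 probe 2 stood at 1.07 with the mutant in Cy5 and at -1.74 with the mutant in Cy3 in csn12, at 1.06 and -1.58 in YPR045C, and at 0.71 and -1.24 in ist3. In tgs1 and ynr004w its Cy5 arrays lay between 0.85 and 1.28 and its Cy3 arrays between -0.80 and -0.47. In csn9, where the signs agreed, the arrays gave 0.08 and 0.03. The difference between dyes was thus small in csn9 and pci8 (0.02 and -0.30), moderate in isy1 (0.21 and -0.74), and large elsewhere. The array sets with a shared first number in their names are divided in the same way, and their part in this was not tested.

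HMRA1 probe 1 had one sign on both arrays in YPR045C (-0.75 and -0.08), ist3 (-0.54 and -0.44) and isy1 (0.26 and 0.57). In the 8 tgs1 and ynr004w conditions its Cy5 arrays lay between -0.60 and -0.25 and its Cy3 arrays between 0.65 and 0.99. The pci8 Cy5 array, at -1.07, rested on 6 spots that ran from -3.58 to 0.39. Probe 3 had the widest scatter between spots, with a median SD of 0.51, against 0.18 for HMRA2 and 0.40 for MATALPHA1. Its arrays had one sign in csn12 (0.09 and 0.34), isy1 (-0.13 and -0.09) and ynr004w at 0, 10 and 40 min, where they lay between -0.17 and -0.02. The probes of the gene also disagreed with one another: in isy1 probe 1 was above 0 and probe 3 below 0 on both arrays. Over the 14 means probes 1 and 2 correlated at r = 0.61, probes 1 and 3 at r = 0.06, and probes 2 and 3 at r = -0.26 (rho = 0.45, 0.15 and -0.08).

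**Figure D3:**
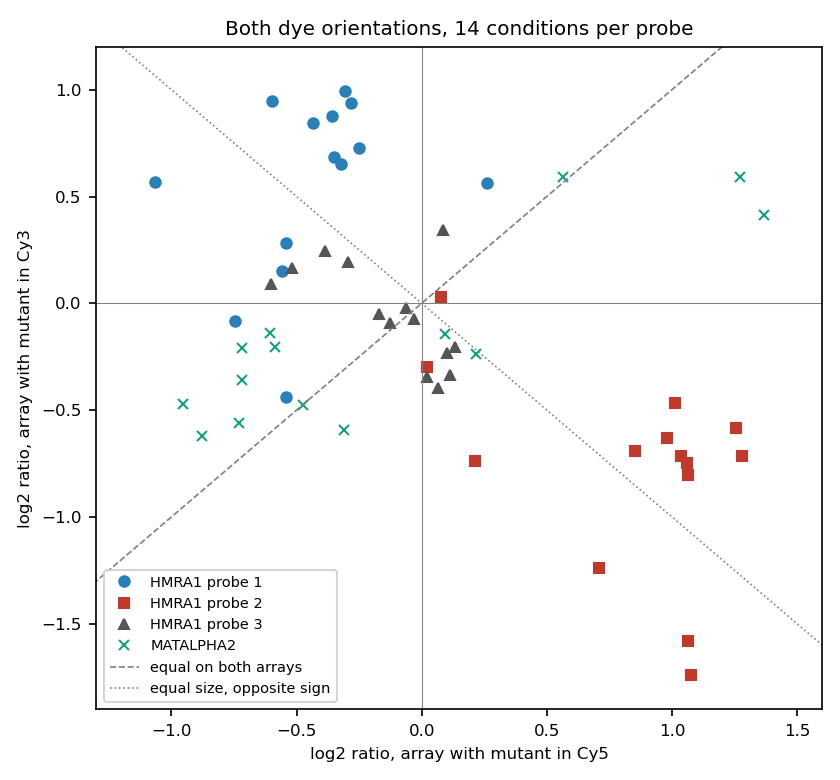
Log2 ratio of mutant over wild type on the array with the mutant in Cy5 (horizontal axis) against that with the mutant in Cy3 (vertical axis), for the 3 HMRA1 probes and MATALPHA2 in 14 conditions each. HMRA1 probe 2 lies mostly at lower right and probe 1 at upper left, near the line of opposite signs, while MATALPHA2 has both arrays on one side of 0 in 12 conditions.

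Against MATALPHA1, HMRA1 probe 1 ran the other way over the conditions (r = -0.83, rho = -0.56), as did probe 2 (r = -0.81, rho = -0.72), and probe 3 did not follow it (r = -0.03, rho = 0.11). The averages over both dyes were below 0 for all 3 HMRA1 probes in YPR045C (-0.41, -0.26 and -0.07) and ist3 (-0.49, -0.27 and -0.26), where MATALPHA1 was highest. In every tgs1 and ynr004w condition they were above 0 for probes 1 and 2 (0.08 to 0.34) and below 0 for probe 3. Only probe 1 in YPR045C and ist3, and probe 3 at 3 times of ynr004w, had the same sign on both arrays there. Over all 6 probes and 14 conditions, 31 of 84 means were above 0.

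Whether the move to 16 °C altered the ratios was tested in tgs1 and ynr004w. A difference between temperatures is another contrast than mutant against wild type. It is still formed from ratios that were known when the genes were chosen, so its p-values may not be free of that choice. MATALPHA1 averaged -1.18 ± 0.14 in tgs1 at 16 °C (SD, n = 3 time points) and -0.95 in the 1 pair at 30 °C. In ynr004w it averaged -1.51 ± 0.20 at 16 °C (SD, n = 3 time points), against -1.25 and -1.08 on the arrays at 30 °C. The differences, 16 °C minus 30 °C, were -0.23 ± 0.14 in tgs1 (SE, 95% confidence interval -0.54 to 0.08, limma adjusted p = 0.405) and -0.34 ± 0.14 in ynr004w (-0.66 to -0.03, adjusted p = 0.337). Neither passed the threshold of 0.05 after adjustment over 1456 probes. The size differed between dye orientations: without the arrays with the mutant in Cy5 the differences were -0.03 in tgs1 and -0.17 in ynr004w, and without those in Cy3 they were -0.43 in tgs1 and -0.51 in ynr004w. Without the 25 min samples of ynr004w its difference was -0.22. The 30 °C value of each strain is a single pair, which the fit takes to vary as much as the cold samples do, and nothing says that time points came from separate cultures.

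MATALPHA2 averaged -0.41 ± 0.05 in tgs1 and -0.67 ± 0.11 in ynr004w at 16 °C (SD, n = 3 time points each), and its differences from 30 °C were 0.06 (95% interval -0.14 to 0.27) and -0.02 (-0.23 to 0.18). HMRA2 averaged -0.50 ± 0.15 in tgs1 and -0.67 ± 0.14 in ynr004w at 16 °C (SD, n = 3 time points each), with differences from 30 °C of 0.14 (-0.14 to 0.41) and 0.02 (-0.25 to 0.30). Read without the arrays that had the mutant in Cy5, the HMRA2 difference in tgs1 was 0.55 (limma adjusted p = 0.0256, with 140 of 1456 probes passing), and without those that had it in Cy3 it was -0.27. The 3 HMRA1 probes differed between temperatures by -0.11 to 0.06 log2 units, and the limma adjusted p of these 5 other probes lay between 0.521 and 0.955. In the limma fit 0 of the 6 probes passed in either strain, against 0.481% of all probes in tgs1 (7 of 1456) and 0% in ynr004w. At an unadjusted p under 0.05 the counts over all probes were 274 in tgs1 and 186 in ynr004w, with 0 and 1 of the 6 probes among them. The difference between the strains' temperature changes passed for none of the 6 probes (limma adjusted p of 0.908 or more).

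The strains were also compared at 16 °C. This compares ratios of the kind by which the genes were chosen, so its p-values are not free of that choice. The fit did not pair the time points. At 16 °C, MATALPHA1 lay closer to wild type in tgs1 than in ynr004w, by 0.32 ± 0.10 log2 units (SE, 95% interval 0.10 to 0.55, limma adjusted p = 0.167). The pair means were -1.02, -1.27 and -1.25 in tgs1 and -1.40, -1.74 and -1.38 in ynr004w at 10, 25 and 40 min, and these ranges do not overlap. The single arrays did overlap, from -1.62 to -0.83 in tgs1 and from -2.10 to -1.13 in ynr004w. At 30 °C the pair means, -0.95 in tgs1 and -1.16 in ynr004w, lay in the same order. Without the 25 min samples of ynr004w the difference at 16 °C was 0.21. For MATALPHA2 the difference was 0.26 ± 0.07 (0.11 to 0.40, limma adjusted p = 0.123), with pair means of -0.37, -0.40 and -0.46 in tgs1 and -0.71, -0.75 and -0.54 in ynr004w. For HMRA2 it was 0.17 ± 0.09 (-0.02 to 0.37, limma adjusted p = 0.442), and the pair means of the strains overlapped. Again 0 of 6 probes passed, against 0.275% of all probes (4 of 1456). At an unadjusted p under 0.05 there were 2 of the 6 and 188 of 1456 probes in the limma fit. Scaled to one spread, the arrays moved both alpha genes past the threshold (0.54 for MATALPHA1 and 0.33 for MATALPHA2, adjusted p = 0.0321 each). With single arrays in place of pair means, 0 of 1456 probes passed the limma test in any of the 3 comparisons, with 40, 33 and 36 at an unadjusted p under 0.05.

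**Figure D4:**
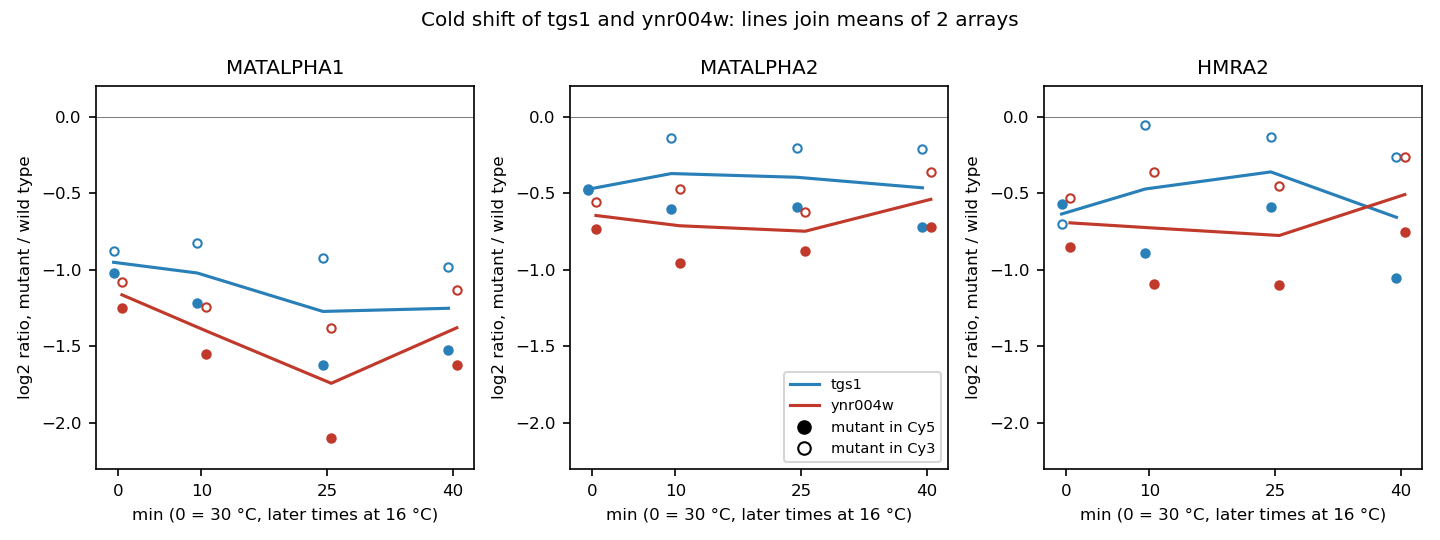
Log2 ratio of mutant over wild type (vertical axis) against min of the cold shift (horizontal axis, 0 at 30 °C and the later times at 16 °C) in tgs1 (blue) and ynr004w (red); filled points have the mutant in Cy5, open points in Cy3, and lines join the means. All values lie below 0, MATALPHA1 is lowest in ynr004w at 25 min (-1.74), and the 2 dyes lie apart by more than most steps between times.

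The targets and partners of the mating type proteins were described from 6 gene lists. Of the alpha-specific genes, 3 of 4 had a probe: MF(ALPHA)1 and MF(ALPHA)2, which encode alpha-factor, and STE3, the receptor for a-factor. All 3 were above 0 on both arrays in YPR045C (median 3.02) and ist3 (median 2.23), and all 3 were below 0 on both arrays in each tgs1 and ynr004w condition (medians -2.87 to -1.86). Of all genes, 11.4% in YPR045C and 21.8% in ist3 were above 0 on both arrays, and 7.74% to 13.5% were below 0 on both arrays in the tgs1 and ynr004w conditions. Of the a-specific genes, 2 of 7 had a probe, the a-factor genes MFA1 and MFA2. Both were below 0 on both arrays in YPR045C (-2.14 and -3.16) and ist3 (-1.47 and -2.10) and above 0 on both arrays in all 8 tgs1 and ynr004w conditions (1.23 to 2.82). Of all genes, 10.7% in YPR045C and 19.1% in ist3 were below 0 on both arrays, and 8.86% to 16.1% were above 0 on both arrays in the tgs1 and ynr004w conditions.

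In csn12 the targets did not follow the same split. MFA1 stood at -1.17 and -1.10 and MFA2 at -0.78 and -0.67, whereas MF(ALPHA)1 (0.24 and -0.11), STE3 (0.37 and -0.26) and MF(ALPHA)2 (1.02 and -1.61) had opposite signs on the arrays. So csn12 combined MATALPHA1 above 0, MATALPHA2 and HMRA2 below 0, and a-factor genes below 0. In isy1 MATALPHA2 and HMRA2 were above 0 on both arrays, and so were STE3 (0.25 and 0.25), MF(ALPHA)1 (0.30 and 0.37) and MFA2 (0.30 and 0.97). There MF(ALPHA)2 (0.38 and -0.49) and MFA1 (-0.09 and 0.61) had opposite signs. In csn9 and pci8, where MATALPHA2 and HMRA2 stayed near 0, the alpha-specific genes were split. MF(ALPHA)1 was above 0 on both arrays (means 0.60 and 0.61), MF(ALPHA)2 had means of 0.06 and 0.14, and STE3 lay below 0 on both pci8 arrays (-0.25 and -0.15) with a csn9 mean of -0.04. Both a-factor genes were below 0 on both arrays in csn9 and pci8 (means -0.36 to -0.14). The share of all genes below 0 on both arrays was 26.9% in csn9, 26.6% in pci8 and 16.1% in csn12. The share above 0 on both arrays was 24.8% in csn9, 28.3% in pci8 and 23.7% in isy1. One sign on both arrays was thus common in csn9, pci8 and isy1, and by itself says little about single genes there.

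Of the haploid-specific genes, which a1 and alpha2 shut off together in diploids, 3 of 10 had a probe. FUS3, a MAP kinase of the pheromone response, was above 0 on both arrays in YPR045C (0.28 and 1.05), pci8 and isy1 (0.03 and 0.75). In ist3 FUS3 had opposite signs (mean 0.52). STE12, the transcription factor of that pathway, was above 0 on both arrays in YPR045C (0.16 and 1.08), ist3 (mean 0.61) and csn9. Of all genes, 11.4% in YPR045C, 21.8% in ist3, 24.8% in csn9, 28.3% in pci8 and 23.7% in isy1 were above 0 on both arrays. RME1, a repressor of meiotic entry, had means between -0.20 and 0.16. In 7 of the 8 tgs1 and ynr004w conditions none of the 3 had one sign on both arrays. In ynr004w at 40 min RME1 did, at 0.05 and 0.06. Over all probes, only 17.9% to 33.6% had one sign on both arrays in these conditions, so the count says little about 3 genes. The medians of the list in tgs1 and ynr004w lay between -0.18 and -0.01.

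The cofactors MCM1, TUP1 and CYC8 and ASH1, a daughter-cell repressor of mating type switching, all had probes. Their list medians lay between -0.13 and 0.18 over the 14 conditions. MCM1 was above 0 on both arrays in isy1 (mean 0.62) and below 0 on both in pci8 (mean -0.35). TUP1, CYC8 and ASH1 had opposite signs on the arrays in isy1 (means 0.12, -0.03 and -0.17). One sign on both arrays also occurred elsewhere in the list, in either direction. Examples are CYC8 in YPR045C (-0.59 and -0.20) and TUP1 in tgs1 at 10 min (0.42 and 0.43). Of all genes, 23.7% in isy1 and 14.3% in tgs1 at 10 min were above 0 on both arrays. In pci8 26.6% and in YPR045C 10.7% were below. Among the silencing genes 8 of 9 had a probe (SIR1, SIR2, SIR3, SIR4, RAP1, ABF1, SUM1 and HST1), with list medians between -0.05 and 0.12. In YPR045C and ist3, where MATALPHA1 was highest, 1 of 8 was above 0 and 0 of 8 below 0 on both arrays: SIR4, a structural Sir protein, at 0.01 and 0.02 in YPR045C and at 0.04 and 0.02 in ist3. Over all genes, 11.4% in YPR045C and 21.8% in ist3 were above 0 on both arrays, and 10.7% and 19.1% were below. SIR2, the Sir deacetylase, had opposite signs in both strains. The meiotic genes IME1, IME4, MER1 and NDT80, 4 of 5 in that list, had medians between -0.16 and 0.17. In the limma fit 0 of the 25 probes of the 6 lists passed in any of the 3 tested comparisons, with 4, 2 and 4 of them at an unadjusted p under 0.05, a level that 18.8%, 12.8% and 12.9% of all 1456 probes reached.

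**Figure D5:**
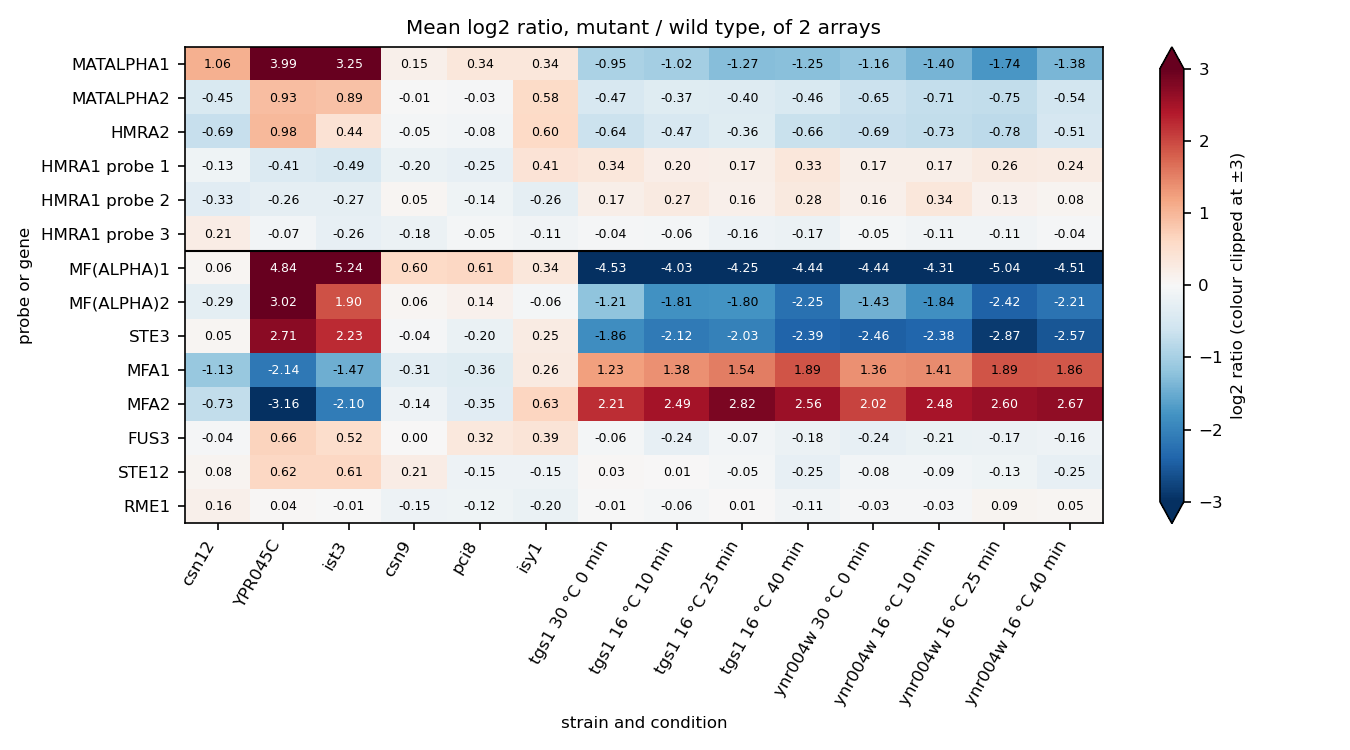
Mean log2 ratio of mutant over wild type (colour, clipped at 3 in either direction, with the value in each cell) for the 6 regulator probes (above the line) and for alpha-specific, a-specific and haploid-specific genes (below it) in 14 conditions. MATALPHA1 and the alpha-specific genes are above 0 in YPR045C and ist3 and below 0 in tgs1 and ynr004w, the a-factor genes are the reverse, and in csn12 MATALPHA1 is at 1.06 while MF(ALPHA)1 and STE3 are at 0.06 and 0.05.

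Among the 981 other genes, those whose 14 means were most like MATALPHA1 by Pearson r were STE3 (r = 0.98, rho = 0.91), MF(ALPHA)2 (0.97, 0.92), MF(ALPHA)1 (0.96, 0.82), SST2 (0.95, 0.89) and FUS3 (0.89, 0.78). SST2, which damps the pheromone signal, ranged from -0.64 to 0.82. FUS3 ranged from -0.24 to 0.66, with opposite signs on the arrays in every tgs1 and ynr004w condition. The most opposed were MFA2 (r = -0.97, rho = -0.91), MFA1 (-0.95, -0.93), HMRA1 as the mean of its probes (-0.92, -0.71), TOA2 (-0.91, -0.79) and PIG1 (-0.90, -0.69). For HMRA1 the highest were MFA2 (0.94, 0.72), MFA1 (0.92, 0.78) and UFD1 (0.91, 0.72), and the lowest MF(ALPHA)1 (-0.96, -0.83), STE3 (-0.92, -0.71) and MATALPHA1. The HMRA1 mean itself spanned only -0.34 to 0.16, against -1.74 to 3.99 for MATALPHA1. It averages probes that disagreed with one another (r = 0.61, 0.06 and -0.26). Probes 1 and 2 of HMRA1 had opposite signs on the arrays in 11 and 13 of 14 conditions. These correlations are descriptions: 8 of the 14 points come from 2 strains, and all genes of a condition were read on the same arrays.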

How the data were processed

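Per the labels' protocols, acid phenol was used to extract total RNA and aminoallyl-dUTP entered the cDNA, and mutant and wild type carried Cy5 and Cy3 in exchange. The deposited table holds 1 log2 ratio per spot, as read from the values; the sources used here do not give scanner, background correction, normalization, log base or direction. Gene names came from the platform annotation through the RefSeq gene table of R64 (982 of 982 identifiers matched; 79 of 1536 probes have no name). Array medians were set to 0, a probe's 6 spots were averaged per array, and both arrays of a condition were then averaged as a dye exchange. Every column was mapped by its name, with 0 left over.

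Tests used limma 3.58.1 under R 4.3.3 (lmFit, then eBayes, 2-sided, Benjamini-Hochberg over 1456 probes, threshold 0.05) on 14 pair means, grouped into 10 combinations of strain and temperature, with 4 residual and 6.63 prior degrees of freedom. The spread comes from the time points at 16 °C, so p-values measure only the variation between these samples, which may be technical. One named probe lacked values for a pair and was left out. Tables were handled in Python 3.11.15 with pandas 2.3.3. On simulated data for tgs1 at 16 °C against 30 °C, 98% and 100% of probes changed by 0.5 and 1 log2 units were recovered. Of 1256 unchanged probes, 8 were called. The simulation drew independent noise at the fitted spread, without a dye effect, and changed 200 of 1456 probes, whereas the data gave 7 calls. Its recovery need not hold for these genes, since MATALPHA1 had an SE of 0.14 against a median of 0.087. The genes named were all probes of the 4 genes, the measured members of the 6 lists, and the 5 most and 5 least correlated with MATALPHA1 (3 each for HMRA1). Members and lists were chosen with earlier results of these data known. The array numbers mark dye orientations, and the labels do not say which arrays share a culture. Alternatives were centring, scaling, spot medians, a minimum of 4 spots, single arrays, probes averaged per gene, and leaving out an array orientation or a time point. No sequences were printed, since none was given.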

Additional observations from a re-analysis of the deposited data

How the results depend on the processing

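The number of probes past the threshold depended on the setting in each tested comparison. For tgs1 at 16 °C against 30 °C the count was 7, and it was 1 with arrays scaled to one spread, 0 with the probes of a gene averaged, and 0 to 140 when an array orientation or a time point was left out. The 140 came without the arrays with the mutant in Cy5, and a count of 0 without tgs1 at 25 min or ynr004w at 40 min. For ynr004w the count was 0, with 2 after scaling and 0 to 3 when something was left out. For tgs1 against ynr004w at 16 °C the count was 4, with 13 after scaling, 15 with spot medians and 0 to 23 when something was left out. In the fit over single arrays with a dye term, which is the replicate block here, the counts were 0, 0 and 0. The cause was not tested in any of these. The number of means above 0 among 84 stayed between 29 and 36, but the signs of single means were less steady: 16 of 84 turned without the arrays with the mutant in Cy5 and 21 without those in Cy3, most of them of HMRA1 probes, and 0 to 4 under the other settings.

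Of the tests on the 6 probes, 238 alternatives kept direction and call, 3 gained a call and 20 changed direction, all of the last without a call. The gained calls were both alpha genes between strains after scaling, and HMRA2 in tgs1 without the arrays with the mutant in Cy5 (0.55, limma adjusted p = 0.0256). Leaving out an orientation or a time gave, for 16 °C minus 30 °C in tgs1, -0.43 to -0.03 for MATALPHA1, -0.16 to 0.29 for MATALPHA2, -0.27 to 0.55 for HMRA2 and -0.012 to 0.14 for HMRA1 probe 2. In ynr004w it gave -0.51 to -0.17 for MATALPHA1, -0.12 to 0.076 for MATALPHA2, -0.13 to 0.18 for HMRA2 and -0.055 to 0.073 for HMRA1 probe 2. Between strains it gave -0.13 to 0.16 for HMRA1 probe 1 and -0.19 to 0.10 for probe 3. Scaling turned HMRA1 probe 2 to -0.021 in tgs1 and -0.027 in ynr004w, and probe 1 to -0.024 between strains. Spot medians turned HMRA2 to -0.0015 in ynr004w, and between strains HMRA1 probe 1 to -0.019 and probe 2 to -0.015. Centring on genes with 1 probe turned HMRA1 probe 1 to -0.0028 between strains. With 4 spots required, MATALPHA1 in csn12 rests on the second array alone (1.37). The number of arrays limits the precision.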
